A study of Mus musculus with 15 samples.

Results

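Feedback inhibitors of inflammatory signaling were followed across 6 groups of mouse macrophages. The set holds 10 genes: the phosphatase genes Dusp1, Dusp2 and Dusp5, the mRNA decay genes Zfp36, Zfp36l1 and Btg2, the NF-κB regulator genes Tnfaip3, Nfkbia and Nfkbiz, and Socs3, an inhibitor of cytokine receptors. They were chosen by symbol from the 24084 genes of the corrected count table. All 10 passed the filter on low counts and are among the 15289 genes tested.

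The cells were positive for F4/80 and CD45, came from C57BL/6J mice with no treatment named in the labels, and were profiled as bulk total RNA by low-input RNA-seq straight after sorting. The groups are macrophages of sympathetic ganglia (SAM ganglia, 3 libraries), of sympathetic nerve fibers dissected from inguinal fat (SAM fibers, 2), of subcutaneous fat (sATM, 2), of visceral fat (vATM, 2), of spleen (SpM, 3) and of brain (Microglia, 3). SAM names the ganglia and fiber macrophages together, and nerve and fat names SAM with sATM and vATM. The tissues were taken from 10 mice and the labels do not tie libraries to animals, so the p-values cover only variation from library to library, part of which may be technical. Every title carries the tag ND, which the labels do not expand, and the age of the mice is not given in the sources used here. Enzyme treatment at 37 °C differed between tissues. Ganglia spent 10 minutes in collagenase, followed by 30 minutes in trypsin. Fibers spent 30 minutes in hyaluronidase, followed by 15 minutes in collagenase. The remaining tissues spent 30 minutes in collagenase alone.

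Macrophages that sense injury or microbial products switch on MAP kinases, NF-κB and, through secreted cytokines, JAK and STAT proteins. The same signals switch on genes whose products turn them off again. DUSP phosphatases remove the activating phosphates from MAP kinases, ZFP36 proteins bind AU-rich elements in cytokine mRNAs and bring in the deadenylase that BTG proteins also work with, IκBα (Nfkbia) and A20 (Tnfaip3) restrain NF-κB, and SOCS3 blocks signalling from gp130-type receptors. Most of these genes are transcribed within minutes of a stimulus and have short-lived mRNAs, so their level reports recent signalling as well as the brake itself.

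Levels are CPM, counts scaled to a library total of 1 M (M for mega), from the corrected table after TMM scaling, and per-length levels are RPKM as the authors deposited them. Libraries held 2.55 to 12.52 M corrected counts, of which genes that collect ribosomal RNA reads took 46.1% to 71.5%. A count of 3 in a library, taken as the lowest level distinguishable from 0, equalled 0.249 to 0.893 CPM, a limit that covers counting error only. Calls of higher or lower needed both an adjusted p under 0.05 and a log2 difference of 1 or more in either direction, by edgeR's quasi-likelihood test with Benjamini-Hochberg adjustment over all 15289 genes. All 10 markers of macrophages were detected in every group, with summed levels of 7590 to 10200 CPM in SAM ganglia, 7080 to 7330 in SAM fibers, 10800 to 13200 in sATM, 9530 to 10800 in vATM, 4630 to 6140 in SpM and 5680 to 6970 in Microglia. The SAM fibers libraries stood apart: their log2 CPM correlated at 0.681 (Pearson, across genes), against 0.855 to 0.973 for the other pairs of a group. Member calls in SAM against the other macrophages and in nerve and fat against brain and spleen are therefore also given without them. The counts for other gene lists and the correlations between genes include them throughout.

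All 10 feedback inhibitors were higher in nerve and fat than in brain and spleen, where 7.40% of all tested genes were called higher. Both the set and this comparison were chosen with earlier results of these data known, so the count and its p-values are descriptive. In those results, levels in fat lay closer to nerve than to spleen or brain. The median log2 difference was 4.10 for the set, against −0.13 for all tested genes. For 8 of the 10, every nerve or fat library lay above every brain or spleen library, as was so in either direction for 3.89% of tested genes. SAM fibers had the highest mean of the 6 groups for every member. In sorted bulk samples, fewer cells with a transcript and less of it per cell cannot be told apart.

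**Figure D1:**
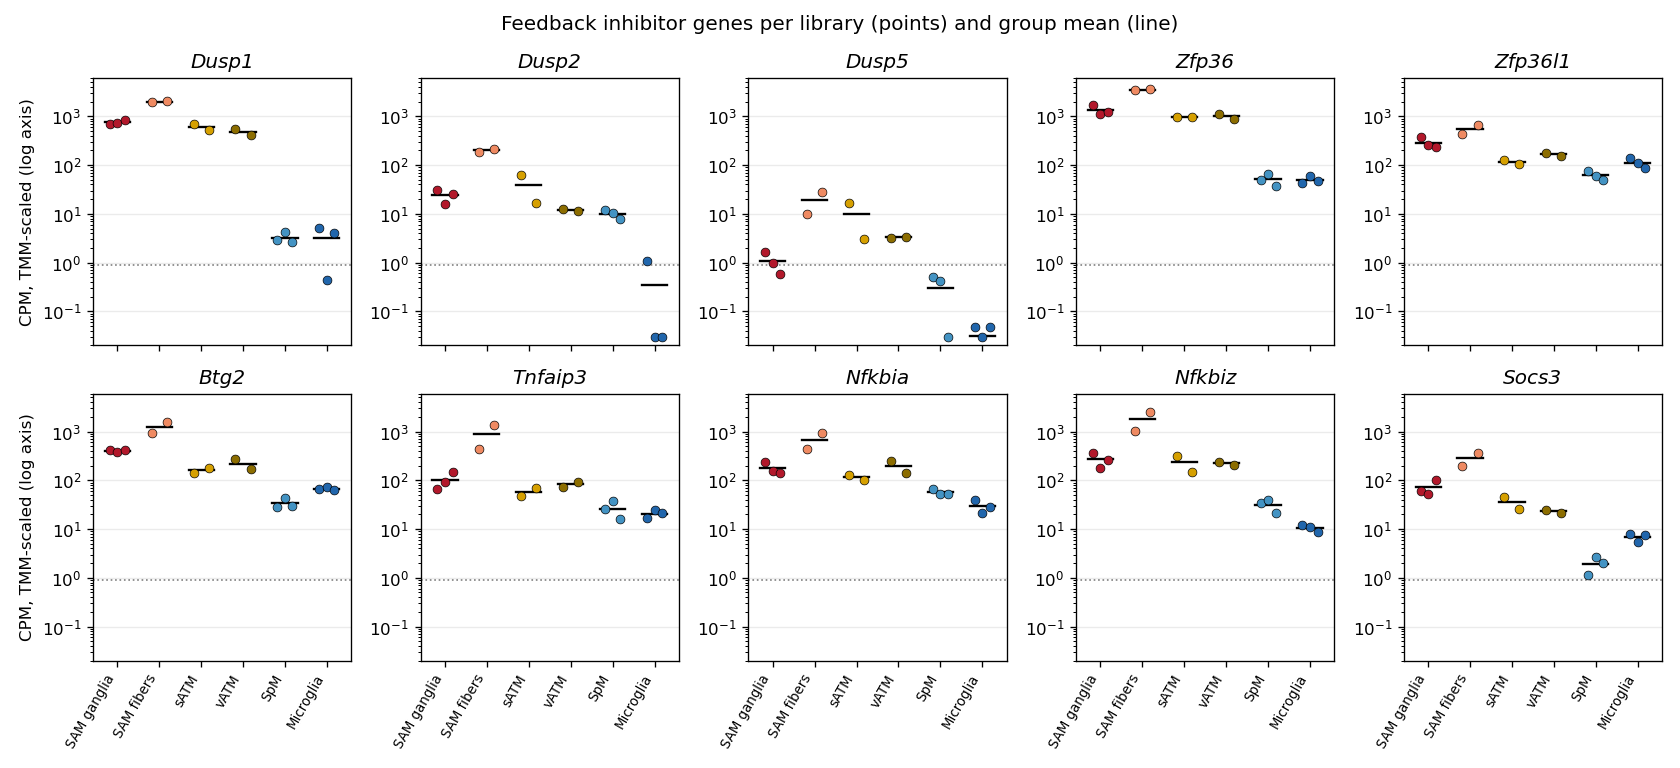
Level of each of the 10 genes in each of the 15 libraries (points, CPM after TMM scaling on a log axis), with the mean of each group as a line. The dotted line marks 0.9 CPM, about the highest level that 3 counts gave in a library, and points under 0.03 CPM are drawn at 0.03. SAM fibers have the highest mean in every panel, although for Dusp5 SAM fibers 1 (9.86 CPM) lies below sATM 1 (16.4 CPM), and for Dusp1 the nerve and fat libraries (411 to 2050 CPM) lie far above those of SpM and Microglia (0.434 to 5.24 CPM).

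The phosphatase genes held both the largest difference and the lowest levels of the set. Dusp1, whose product inactivates p38, JNK and ERK in the nucleus, lies on mm10 chromosome 17 (26505591 to 26508472, minus strand). It had 682, 745 and 833 CPM in SAM ganglia, 1940 and 2050 in SAM fibers, 686 and 528 for sATM, 542 and 411 for vATM, 2.87, 4.20 and 2.65 in SpM, and 5.24, 0.434 and 3.99 in Microglia. No library of brain or spleen came near any library of nerve or fat, and SpM and Microglia overlapped each other, as did SAM ganglia with sATM and sATM with vATM. The fitted difference between nerve and fat and brain and spleen was 7.90 ± 0.35 on the log2 scale (SE, adjusted p = 4.46e-10), the largest of the set. Its group mean in vATM was 147 times that in SpM, the next group down in order of level.

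Dusp2 lies on chromosome 2 (127336159 to 127338377, plus strand) and encodes a nuclear phosphatase of ERK and p38 that is found mainly in immune cells. It had 30.5, 15.7 and 26.0 CPM in SAM ganglia, 188 and 218 in SAM fibers, 62.4 and 16.6 for sATM, 12.3 and 11.2 for vATM, and 12.2, 10.3 and 7.88 in SpM. Microglia 1 had 1.06 CPM, and the gene was listed at 0 in Microglia 2 and Microglia 3, whose raw gene-body counts were 6 and 19. Unlike Dusp1, Dusp2 did not separate fat from spleen, since vATM and SpM overlapped, and Microglia were lowest. Nerve and fat exceeded brain and spleen by 4.09 ± 0.45 (log2, SE, adjusted p = 6.36e-06), a value that lay between 2.86 and 6.42 over the other settings tried.

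Dusp5, a nuclear phosphatase specific for ERK on chromosome 19 (53529318 to 53541322, plus strand), was the lowest member. It had 1.64, 0.977 and 0.573 CPM in SAM ganglia, 9.86 and 27.7 in SAM fibers, 16.4 and 3 for sATM, and 3.20 and 3.36 for vATM. SpM had 0.506, 0.414 and 0 CPM and Microglia 0.0472, 0 and 0.0466, all at or under the level of 3 counts except SpM 1 and SpM 2. SAM ganglia, high for most members, lay below every fat library here and in 1 of 3 libraries held under 3 counts. Nerve and fat were called higher than brain and spleen (adjusted p = 1.88e-04), and no fold is given because Microglia held under 3 counts in all. An antisense gene, AC137853.2, overlaps Dusp5 on the other strand, and as the use of strand in counting is not stated the reads of the pair cannot be told apart.

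The DNA just before the start of transcription is shown for Dusp1 and Dusp5 because it holds the textbook elements of signal-dependent transcription. RefSeq promoter entries of 300 bases (250 before the start and 50 after it, build GRCm38.p6) were used for 9 of the 10 genes, all but Nfkbiz, and were searched on both strands for 5 motifs. These were NF-κB (a form of 10 letters, in 1.63% of all 32851 promoters), AP-1 (TGANTCA, 7.81%), the cAMP response element CRE (TGACGTCA, 1.79%), the serum response element of SRF (10 letters, 0.502%) and STAT (TTCCNGGAA, 1.15%). Capitals mark the matches. Dusp1 (chr17:26508423-26508722, minus strand) has a CRE 143 bases before the start. Dusp5 (chr19:53528895-53529194, plus strand) has an NF-κB match at 90 bases that overlaps the first of 2 SRF matches, at 82 and 72 bases. The Dusp5 entry ends before the counted transcript begins (53529318), so its distances are from the start given by the RefSeq entry.
Dusp1 promoter: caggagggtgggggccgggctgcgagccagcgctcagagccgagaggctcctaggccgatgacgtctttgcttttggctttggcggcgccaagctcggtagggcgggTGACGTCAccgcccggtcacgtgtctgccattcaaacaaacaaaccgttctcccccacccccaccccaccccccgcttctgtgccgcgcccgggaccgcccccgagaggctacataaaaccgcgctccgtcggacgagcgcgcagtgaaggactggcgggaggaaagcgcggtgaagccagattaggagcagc
Dusp5 promoter: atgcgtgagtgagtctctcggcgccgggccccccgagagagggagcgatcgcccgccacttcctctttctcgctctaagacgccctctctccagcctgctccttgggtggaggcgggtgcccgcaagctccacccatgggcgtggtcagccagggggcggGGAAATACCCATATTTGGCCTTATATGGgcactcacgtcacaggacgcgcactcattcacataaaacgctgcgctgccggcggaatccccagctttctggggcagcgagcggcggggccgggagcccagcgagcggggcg

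The mRNA decay genes included the member with the highest CPM, Zfp36. This gene (chromosome 7, 28376784 to 28379228, minus strand) encodes tristetraprolin, which binds AU-rich elements and destabilises the mRNAs of Tnf and other cytokines. It had 1740, 1140 and 1250 CPM in SAM ganglia, 3470 and 3630 in SAM fibers, 985 and 976 for sATM, 1110 and 887 for vATM, 48.7, 65.7 and 37.5 in SpM, and 42.9, 59.4 and 46.4 in Microglia. The values fell into 3 tiers that did not overlap, with SAM fibers on top, ganglia and fat between, and SpM with Microglia at the bottom, and ganglia lay just above fat. The difference between nerve and fat and brain and spleen was 4.88 ± 0.21 (log2, SE, adjusted p = 3.79e-10). An antisense gene, Gm44710, overlaps Zfp36.

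Zfp36l1, a paralog with the same kind of RNA-binding zinc fingers (chromosome 12, 80107760 to 80113013, minus strand), varied least. It had 373, 257 and 240 CPM in SAM ganglia, 426 and 649 in SAM fibers, 129 and 103 for sATM, 181 and 150 for vATM, 76.6, 59.2 and 48.5 in SpM, and 138, 109 and 87.8 in Microglia. Microglia overlapped sATM, so this gene did not split the tissues the way Zfp36 did. The difference was 1.5 ± 0.19 (log2, SE, adjusted p = 2.78e-05), the smallest of the set, and the non-coding gene Gm26669 overlaps Zfp36l1 on the opposite strand.

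Btg2, an antiproliferative protein that binds the CCR4-NOT deadenylase, lies on chromosome 1 (134074865 to 134079155, minus strand). It had 416, 385 and 423 CPM in SAM ganglia, 934 and 1570 in SAM fibers, 142 and 178 for sATM, 272 and 167 for vATM, 28.9, 43.1 and 29.3 in SpM, and 65.3, 73.4 and 63.8 in Microglia. The order was SAM fibers, SAM ganglia, fat, Microglia and SpM, with overlap only between the fat groups. Nerve and fat exceeded brain and spleen by 2.94 ± 0.19 (log2, SE, adjusted p = 3.16e-08).

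ZFP36 proteins bind UAUUUAU, and the set's own mRNAs carry this element. In the GENCODE M21 transcripts, 8 of the 10 members had TATTTAT in the 3′ UTR, all but Dusp5 and Nfkbiz, against 26.2% of 18764 genes. Zfp36, Dusp1 and Zfp36l1 had 3 matches each, in UTRs of 774, 690 and 1835 bases. Of genes with a UTR within 10% of that length, 1.32%, 1.30% and 4.4% had as many as Zfp36, Dusp1 and Zfp36l1. Nfkbia, Socs3 and Tnfaip3 had 2 matches each, and Dusp2 and Btg2 had 1, which for Btg2, with 2199 bases, was as many as in 42.6% of genes of that length. Sites are shown, as DNA of the coding strand (mm10) with the heptamer in capitals, of the 3 members with most matches per base and of Socs3 for its paired heptamers. They come from Zfp36 (chr7:28376966-28376994, minus strand), Dusp1 (chr17:26506159-26506187, minus strand), Nfkbia (chr12:55489608-55489636, minus strand) and Socs3 (chr11:117966139-117966167, minus strand), where 2 heptamers share a base.
Zfp36 site: agtgggcccttTATTTATgacgactttat
Dusp1 site: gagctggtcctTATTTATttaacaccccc
Nfkbia site: ggaccacgtttTATTTATtgtgcttttga
Socs3 site: ctttgcacataTATTTATATTTATactca

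Among the NF-κB regulators, Tnfaip3 and Nfkbiz showed the steepest steps of the set from the next group to SAM fibers. Tnfaip3 encodes A20, a ubiquitin-editing enzyme that shuts off signalling from TNF and Toll-like receptors (chromosome 10, 19000910 to 19015410, minus strand). It had 66.5, 92.8 and 148 CPM in SAM ganglia, 435 and 1350 in SAM fibers, 48.1 and 69.2 for sATM, 74.1 and 92.1 for vATM, 25.5, 36.8 and 16.2 in SpM, and 16.5, 24.1 and 21.1 in Microglia. SAM fibers averaged 8.77 times SAM ganglia, the next group, while SAM ganglia and vATM overlapped, as did SpM and Microglia. Nerve and fat exceeded brain and spleen by 2.65 ± 0.29 (log2, SE, adjusted p = 7.22e-06).

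Nfkbia encodes IκBα, which holds NF-κB in the cytoplasm and is resynthesised when NF-κB is active (chromosome 12, 55489409 to 55492647, minus strand). It had 236, 153 and 139 CPM in SAM ganglia, 437 and 924 in SAM fibers, 129 and 99.8 for sATM, 252 and 142 for vATM, 65.5, 51.2 and 53.0 in SpM, and 40.1, 21.1 and 28 in Microglia. SAM ganglia and vATM overlapped, SAM fibers lay above both and sATM below them, and SpM lay above Microglia with no overlap. The difference between nerve and fat and brain and spleen was 2.47 ± 0.24 (log2, SE, adjusted p = 1.90e-06).

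Nfkbiz encodes IκBζ, a nuclear IκB that is induced by Toll-like receptors and IL-1 and that also activates a subset of secondary genes such as Il6, so it is not only an inhibitor (chromosome 16, 55811377 to 55838641, minus strand). It had 356, 180 and 266 CPM in SAM ganglia, 1050 and 2540 in SAM fibers, 315 and 149 for sATM, 243 and 208 for vATM, 33.7, 39.3 and 21.3 in SpM, and 12.0, 11.2 and 8.69 in Microglia. SAM ganglia, sATM and vATM overlapped one another, SAM fibers averaged 6.74 times SAM ganglia, and SpM lay above Microglia. Nerve and fat exceeded brain and spleen by 4.44 ± 0.30 (log2, SE, adjusted p = 3.17e-08).

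The promoters of Nfkbia and Tnfaip3 are shown because NF-κB's own inhibitors are the textbook case of its feedback. Nfkbia (chr12:55492598-55492897, minus strand) has an NF-κB match 29 bases before the start. Tnfaip3 (chr10:19015361-19015660, minus strand) has an NF-κB match at 12 bases and an AP-1 match at 136 bases, in the RefSeq entry that starts where the files' transcript does. Of the other genes, Btg2 had a CRE at 166 bases and Zfp36l1 an AP-1 match at 129 bases. Dusp2, Zfp36 and Socs3 matched none of the motifs, and STAT matched in no member. Thus 6 of the 9 genes searched held at least 1 of the 5 motifs in this window. The share of all promoters that hold at least 1 was not worked out. A match is a run of letters and not a measured site.
Nfkbia promoter: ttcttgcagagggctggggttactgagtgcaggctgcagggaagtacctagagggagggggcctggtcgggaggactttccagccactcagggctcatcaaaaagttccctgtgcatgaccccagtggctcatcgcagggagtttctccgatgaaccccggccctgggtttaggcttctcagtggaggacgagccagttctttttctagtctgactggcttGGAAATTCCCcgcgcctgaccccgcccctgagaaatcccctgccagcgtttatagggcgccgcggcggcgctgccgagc
Tnfaip3 promoter: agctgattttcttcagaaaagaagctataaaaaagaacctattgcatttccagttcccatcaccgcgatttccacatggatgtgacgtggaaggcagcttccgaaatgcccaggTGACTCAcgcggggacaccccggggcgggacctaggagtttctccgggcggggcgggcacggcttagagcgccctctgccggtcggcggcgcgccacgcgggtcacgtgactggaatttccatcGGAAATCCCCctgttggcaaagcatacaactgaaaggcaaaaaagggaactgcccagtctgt

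Socs3, the inhibitor of gp130 and leptin receptors, lies on chromosome 11 (117966087 to 117969366, minus strand). It had 60, 53.3 and 102 CPM in SAM ganglia, 195 and 369 in SAM fibers, 44.5 and 26.3 for sATM, 24.9 and 21.6 for vATM, 1.16, 2.73 and 1.97 in SpM, and 7.87, 5.31 and 7.43 in Microglia. No neighbours in the order SAM fibers, SAM ganglia, sATM, vATM, Microglia and SpM overlapped, which was so for no other member. Nerve and fat exceeded brain and spleen by 4.11 ± 0.28 (log2, SE, adjusted p = 4.73e-08).

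Levels can be set side by side between genes only per length. In SAM fibers Zfp36 had 1960 ± 469 RPKM (SD, n = 2), Dusp1 1000 ± 249, Nfkbiz 505 ± 373, Nfkbia 441 ± 300, Btg2 408 ± 223, Tnfaip3 211 ± 183, Zfp36l1 180 ± 87.7, Dusp2 123 ± 38.5, Socs3 105 ± 64.6 and Dusp5 16.9 ± 13.9. Zfp36 also led in SAM ganglia (738 ± 189, n = 3), sATM (533 ± 54.3, n = 2) and vATM (435 ± 22.0, n = 2), with Dusp1 second in each. Nfkbia led in SpM, at 39.4 ± 3.73 RPKM against 31.7 ± 9.88 for Zfp36, and Zfp36l1 led in Microglia, at 44.3 ± 7.82 against 34.4 ± 11.7 for Zfp36 (n = 3 each), with differences smaller than the SD of Zfp36. Dusp1, second in nerve and fat, had 1.85 ± 0.551 RPKM in SpM and 1.83 ± 1.32 in Microglia.

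The comparison of SAM with the other macrophages, which weighs 4 groups against the ganglia and fibers, called all 10 members higher, where 5.71% of tested genes were called higher. The median log2 difference was 3.12 for the set, against 0.02 for all tested genes, and 4 of the 10 (Zfp36, Zfp36l1, Btg2 and Socs3) did not overlap between SAM and the rest, as was so for 1.12% of tested genes. The differences ran from 1.88 ± 0.18 for Zfp36l1 to 4.84 ± 0.26 for Dusp1 (log2, SE, adjusted p = 4.65e-06 and 9.12e-09). The fat groups lay between: for Dusp1, SAM averaged 1370 CPM and the other groups 272 CPM, yet sATM overlapped SAM ganglia. Without both SAM fibers libraries, ganglia alone stood for SAM and 9 members were called higher, while Dusp5 was not called (adjusted p = 0.902). Over all genes, 623 were called higher in that fit.

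SAM fibers against sATM sets the macrophages of the nerve against those of the fat around it. Here 8 of the 10 members were higher, where 1.85% of tested genes were called higher, and none was lower. The median log2 difference was 2.48, against 0.00 for all tested genes. Tnfaip3 differed most (3.93 ± 0.55, log2, SE, adjusted p = 0.00136), then Socs3 (3.0 ± 0.46, adjusted p = 0.00216), Btg2 (2.97 ± 0.35, adjusted p = 6.77e-04) and Nfkbiz (2.96 ± 0.48, adjusted p = 0.00316). Nfkbia (2.58 ± 0.44), Zfp36l1 (2.22 ± 0.35) and Zfp36 (1.86 ± 0.32) also rose. Dusp1 was called at 1.72 ± 0.46 (adjusted p = 0.0438), a call that was lost in 15 of 25 alternatives, 13 of them fits without 1 library, and its sign changed in raw counts. Dusp2 (2.38 ± 0.67, adjusted p = 0.0544) and Dusp5 (0.98 ± 1.0, adjusted p = 0.54) were not called. All but Dusp5 had no overlap between the 4 libraries, which with 2 against 2 was also so for 51.5% of tested genes. The calls rest on few libraries: most were lost without sATM 2, which leaves 1 sATM library. The log2 differences there were 2.35 for Nfkbia, 2.61 for Socs3, 1.99 for Zfp36l1 and 1.46 for Dusp1. When the spread was estimated from these 4 libraries alone, 0 members were called, where 0 of all genes were called in either direction.

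SAM ganglia and SAM fibers differed within the nerve. In ganglia 8 of the 10 members were lower than in fibers, where 1.27% of tested genes were called lower, with a median log2 difference of −1.97 against 0.00 for all tested genes. Among those called were Tnfaip3 (−3.13 ± 0.46, log2, SE, adjusted p = 0.00155), Dusp2 (−3.08 ± 0.59, adjusted p = 0.00877) and Nfkbiz (−2.75 ± 0.41, adjusted p = 0.00178). Dusp5 (−4.16 ± 1.0, adjusted p = 0.0312) lay near the level of 3 counts in SAM ganglia and lost its call in 11 of 25 alternatives, among them the fits without SAM ganglia 1 (adjusted p = 0.061), SAM ganglia 2 (0.106), SAM ganglia 3 (0.0792) or SAM fibers 2 (0.12). Dusp1 (−1.41 ± 0.40, adjusted p = 0.0618) and Zfp36l1 (−0.89 ± 0.30, adjusted p = 0.114) were not called. None of the 10 overlapped between the 2 groups, as was so for 35.8% of tested genes. When the spread came from these 5 libraries alone, 1 member was called, where 24 of all genes were called lower and 8 higher.

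With the fibers set aside, SAM ganglia differed less from the fat macrophages, with a median log2 difference of 0.48 for the set against 0.14 for all tested genes. In SAM ganglia 3 of the 10 were called higher than in fat, where 2.41% of tested genes were called higher: Socs3 (71.8 ± 26.4 CPM in SAM ganglia, SD, n = 3, against a mean of 29.3 CPM over the fat groups, 1.33 ± 0.33 on the log2 scale with SE, adjusted p = 0.0334), Btg2 (408 ± 20.3 against 190 CPM, 1.12 ± 0.25, adjusted p = 0.0149) and Zfp36l1 (290 ± 72.4 against 141 CPM, 1.07 ± 0.26, adjusted p = 0.0272). Dusp5 had 1.06 ± 0.541 CPM in SAM ganglia and 6.49 CPM in fat (−2.41 ± 0.90, adjusted p = 0.193). The other 6 had log2 differences of 0.17 to 0.55 and were not called. All 3 calls were lost when SAM ganglia 1 or any of the 4 fat libraries was left out, and 1 was made without SAM ganglia 3.

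Between sATM and vATM no member was called, where 0.0392% of tested genes were called in either direction by edgeR's quasi-likelihood test. Dusp2 alone had an unadjusted p below 0.05, with 39.5 ± 32.4 CPM in sATM and 11.7 ± 0.764 CPM in vATM (SD, n = 2 each, 1.74 ± 0.67 on the log2 scale with SE, adjusted p = 1). DESeq2 and the other settings called none either. The other log2 differences lay between −0.79 (Nfkbia) and 1.54 (Dusp5).

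SpM and Microglia, both low, differed member by member. Dusp2 (4.32 ± 0.72, log2, SE, adjusted p = 4.78e-04) and Nfkbiz (1.56 ± 0.39, adjusted p = 0.0132) were higher in SpM, where 5.80% of tested genes were called higher. Socs3 (−1.84 ± 0.41, adjusted p = 0.00567) and Btg2 (−1.0 ± 0.27, adjusted p = 0.0218) were lower in SpM, where 5.31% of tested genes were called lower. Zfp36 averaged 50.7 ± 14.2 CPM in SpM and 49.6 ± 8.73 CPM in Microglia (0.03 ± 0.26, adjusted p = 0.971). The value for Dusp2 rests on 12 corrected counts in Microglia 1, with the other 2 Microglia libraries listed at 0, and Btg2 lies at the size threshold: of the 15 fits that left out a library, 13 called 1 member lower in place of 2. Nfkbiz lost its call without SpM 2 (1.37, adjusted p = 0.0616) and without Microglia 3 (1.44, adjusted p = 0.0747).

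**Figure D2:**
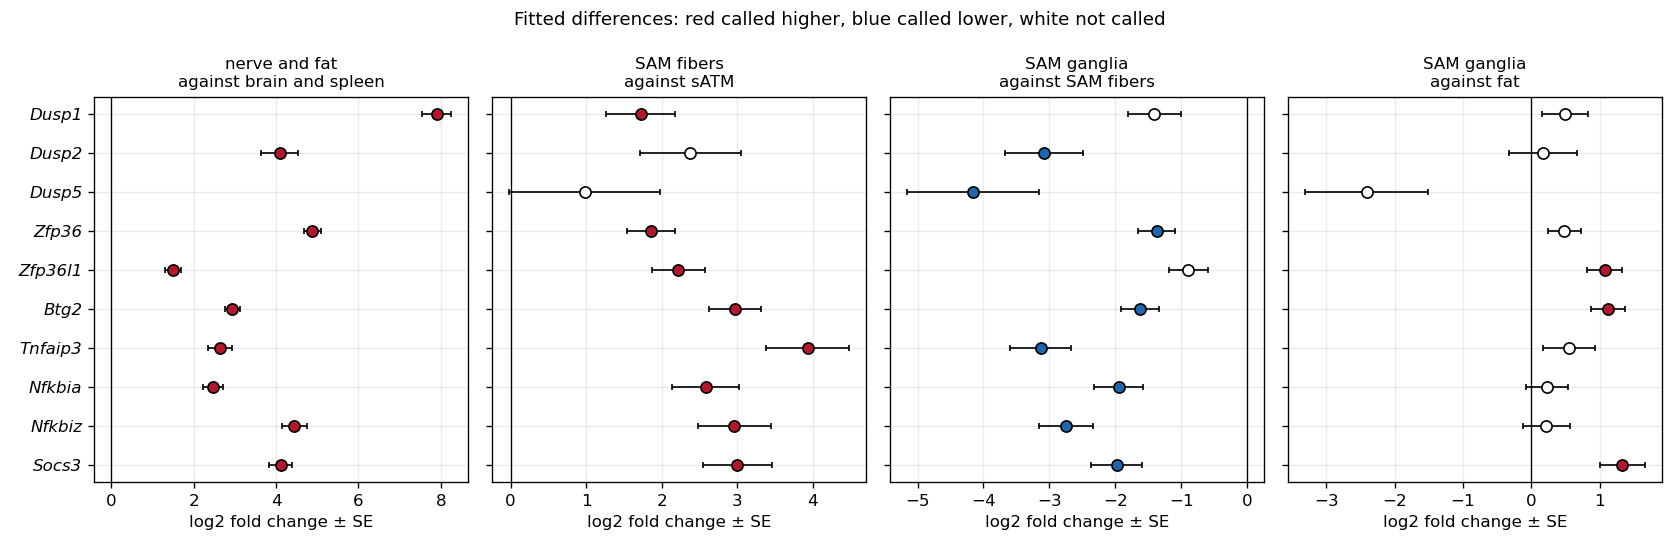
Fitted log2 fold change of each gene (points) with its SE (bars) in 4 comparisons; red points were called higher, blue lower and white points were not called. Dusp5 has no point in the first panel, since Microglia held under 3 counts. The first panel runs from 1.5 for Zfp36l1 to 7.90 for Dusp1, fibers against sATM and ganglia against fibers mirror each other in sign while sharing the fiber libraries, and ganglia against fat lies near 0 for most genes.

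The 2 SAM fibers libraries differed more for some members than for others. SAM fibers 2 had 3.11 times the CPM of SAM fibers 1 for Tnfaip3, 2.81 times for Dusp5, 2.41 for Nfkbiz, 2.12 for Nfkbia, 1.89 for Socs3, 1.68 for Btg2 and 1.52 for Zfp36l1. The ratios were 1.16 for Dusp2, 1.06 for Dusp1 and 1.05 for Zfp36, against a median of 1.16 over tested genes with at least 10 CPM in both. The NF-κB regulators were thus the members that differed most between these libraries, together with Dusp5, and the ratios have no replicate check.

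The corrected table had DNA contamination removed, per its name, and the members kept unequal shares of their raw gene-body counts. Socs3 kept 86.7% to 114% of them over the libraries, Zfp36l1 80.1% to 95.5%, Zfp36 71.3% to 91.7% and Btg2 56.1% to 84.3%. A corrected count above the raw one cannot come from taking reads out, so the shares hold more than removed DNA reads. Dusp1 kept 68.6% in the median library and 7.06% in Microglia 2, where 22 raw counts became 1.55. Nfkbia kept 33.7% to 61.1% and Nfkbiz 14% to 68.2%. Tnfaip3 kept 10.1% in SAM ganglia 1, 21.3% in SAM ganglia 2 and 43.8% in SAM ganglia 3, against 59.1% in SAM fibers 1 and 75.2% in SAM fibers 2. Dusp5 kept 0 to 40.6%. Over tested genes with at least 100 raw counts, the median share was lowest in SAM fibers 1, at 3.26%, stood at 14.7% in SAM fibers 2 and was highest in vATM 1, at 49.4%.

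**Figure D3:**
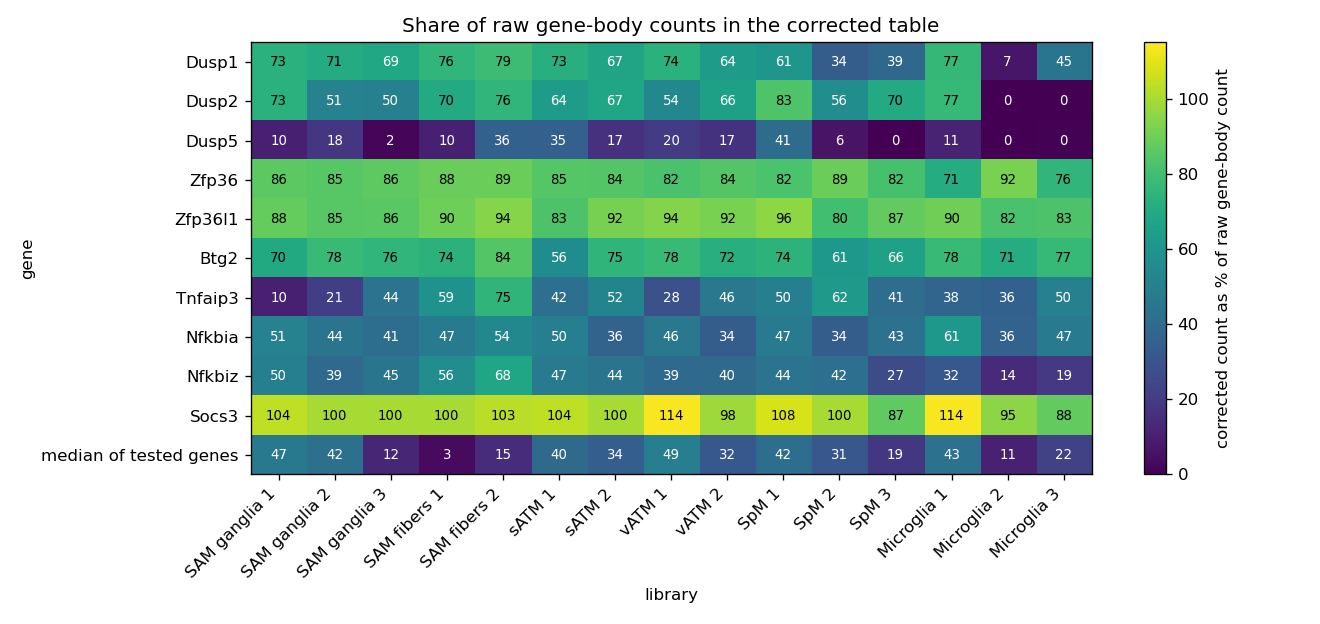
Corrected count as a percentage of the raw gene-body count for each gene (rows) in each library (columns), with the median over tested genes of at least 100 raw counts in the last row. Socs3, Zfp36l1 and Zfp36 stay at 71.3% or more in every library, Dusp5 reaches at most 40.6%, and the last row is lowest in SAM fibers 1 (3.26%), where the members keep 10.1% to 100% of their raw counts.

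Fitted to the raw gene-body counts in place of the corrected ones, nerve and fat against brain and spleen kept 8 of the 10 calls. Of all genes, 320 were called higher and 186 lower there. Dusp1 had a log2 difference of 7.06 (adjusted p = 5.68e-04), Zfp36 of 4.64 (adjusted p = 0.00276) and Socs3 of 3.92 (adjusted p = 0.0033), while Zfp36l1 (1.23, adjusted p = 0.568) and Nfkbia (2.29, adjusted p = 0.0964) were not called. SAM against the other macrophages kept 1 call, that of Dusp1 (3.37, adjusted p = 0.0381), where 15 of all genes were called higher. No member was called in raw counts between SAM fibers and sATM, where 5 of the 10 changed sign, or between SAM ganglia and SAM fibers, where 6 changed sign, and no gene at all was called in these 2 comparisons. The cause of the difference between the corrected and the raw fits was not tested.

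Enzyme treatment moved with tissue. Between groups that had the same collagenase step of 30 minutes, fat (sATM and vATM) against SpM and Microglia, 9 of the 10 members were higher. Over all genes in that fit, 1163 were called higher and 738 lower. Dusp1 differed by 7.30 (log2, adjusted p = 1.85e-09), Zfp36 by 4.30 (adjusted p = 2.22e-09), Nfkbiz by 3.64 (adjusted p = 4.07e-07), Dusp2 by 3.24 (adjusted p = 1.53e-04), Socs3 by 2.96 (adjusted p = 3.20e-06), Btg2 by 1.97, Nfkbia by 1.86 and Tnfaip3 by 1.59. Zfp36l1 had a difference of 0.74 (adjusted p = 0.0296) and was not called for its size. For SAM ganglia and SAM fibers, each with an enzyme sequence of its own, tissue and digestion cannot be told apart. Without both SAM fibers libraries all 10 members stayed higher in nerve and fat, from 1.09 for Zfp36l1 to 7.46 for Dusp1. That fit called 1207 of all genes higher and 860 lower.

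Genes of the same pathways outside the set changed in part, and far from uniformly. In nerve and fat against brain and spleen, 7.40% of all tested genes were called higher and 6.89% lower. Of 13 other MAP kinase phosphatase and Sprouty-type genes tested, 4 rose in nerve and fat against brain and spleen and none fell, with a median log2 difference of 0.99. They were Dusp8 (3.10 ± 0.76), Dusp16 (1.65 ± 0.44), which like Dusp8 acts on JNK and p38, Dusp3 (1.47 ± 0.22) and Dusp22 (1.19 ± 0.25), while Dusp6, the cytoplasmic ERK phosphatase, had −0.24 ± 0.26. Of 12 other mRNA decay genes, 5 rose and none fell (median 0.47). These were the ZFP36 paralog Zfp36l2 (1.44 ± 0.20), the BTG and TOB family genes Tob1 (1.82 ± 0.33), Btg1 (1.75 ± 0.37) and Tob2 (1.15 ± 0.23), and Zc3h12a (1.36 ± 0.33), which encodes the RNase Regnase-1. The deadenylase subunit genes Cnot1 (−0.08 ± 0.23) and Cnot7 (−0.67 ± 0.25) were not called.

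Of 15 other inhibitors of NF-κB, 4 rose and none fell (median 0.19), where 7.40% of all tested genes were called higher and 6.89% lower. They were Nfkbid, another nuclear IκB (4.39 ± 0.27), Bcl3 (2.67 ± 0.38), Irak3 (1.15 ± 0.35) and Tnip3. Irak3 encodes the pseudokinase IRAK-M that restrains Toll-like and IL-1 receptor signalling. Tnip3 is a partner of A20 with under 3 counts in SpM (adjusted p = 1.63e-04). Bcl3 averaged 7.47 CPM in SAM ganglia, 11.3 in SpM and 0.574 in Microglia. Irak3 averaged 11.6 CPM in SAM ganglia, 10.1 in SAM fibers, 17 in SpM and 2.81 in Microglia. Unlike Nfkbiz, both thus had higher means in SpM than in SAM ganglia. The classical IκB genes Nfkbib (0.48 ± 0.34) and Nfkbie (0.46 ± 0.24) and the deubiquitinase gene Cyld (−0.21 ± 0.26) were not called. Among 12 other cytokine receptor inhibitors none rose, and Socs5 fell (−1.38 ± 0.24), with a median of 0.09. In a list of this size, such counts lie near the shares of all tested genes. Socs1 had 0.64 ± 0.53, and of the 7 SOCS genes tested only Socs3 was called higher.

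Of 25 genes of the signalling cores, the kinases and transcription factors that the set restrains, 2 rose and 3 fell (median 0.24), where 7.40% of all tested genes were called higher and 6.89% lower. Map3k8, the kinase that links Toll-like receptors to ERK (2.09 ± 0.24), and the NF-κB subunit gene Rel (1.55 ± 0.47) rose. Mapk8, which encodes JNK1 (−1.47 ± 0.32), and the gp130 gene Il6st (−1.34 ± 0.36) fell, as did Ikbkg, which is given no fold. Ikbkg was listed at 0 in SAM fibers, sATM and vATM, but averaged 8.34 CPM in SAM ganglia, against 1.87 in SpM and 14.4 in Microglia. Mapk8 averaged 46 CPM in SpM, and its 9.69 CPM in Microglia lay below the 10.8 CPM in SAM fibers. Rela (0.30 ± 0.22), Nfkb1 (−0.50 ± 0.19), Mapk14 (−0.32 ± 0.16) and Stat3 (0.67 ± 0.21) were not called.

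Signal-induced genes moved with the set. Of 18 cytokine and mediator genes, 13 rose and 1 fell in nerve and fat against brain and spleen, with a median of 3.93 (4.09 with genes at the count floor set to it). The chemokine Ccl3 averaged 348 CPM in SAM ganglia, 817 in SAM fibers, 122 in sATM, 113 in vATM, 0.355 in SpM and 21.0 in Microglia (6.41 ± 0.29). Ccl2 (8.52 ± 0.57), Ccl4 (5.54 ± 0.29), Il1b (5.45 ± 0.35) and Tnf (4.09 ± 0.34), whose mRNA is a target of tristetraprolin, also rose, and Il1a fell (−1.75 ± 0.47). Of 22 immediate-early and heat-shock genes, which respond to stimulation or stress within minutes, 21 rose, with a median of 4.99. Among them were Fosb (9.62 ± 0.39), the chaperone gene Hspa1a (8.66 ± 0.30), Atf3 (7.08 ± 0.23) and Klf4 (6.07 ± 0.27), and Rhob (0.90 ± 0.19) was not called. Their part in the levels of the set was not tested. The share of all tested genes called was 7.40% higher and 6.89% lower in this comparison.

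**Figure D4:**
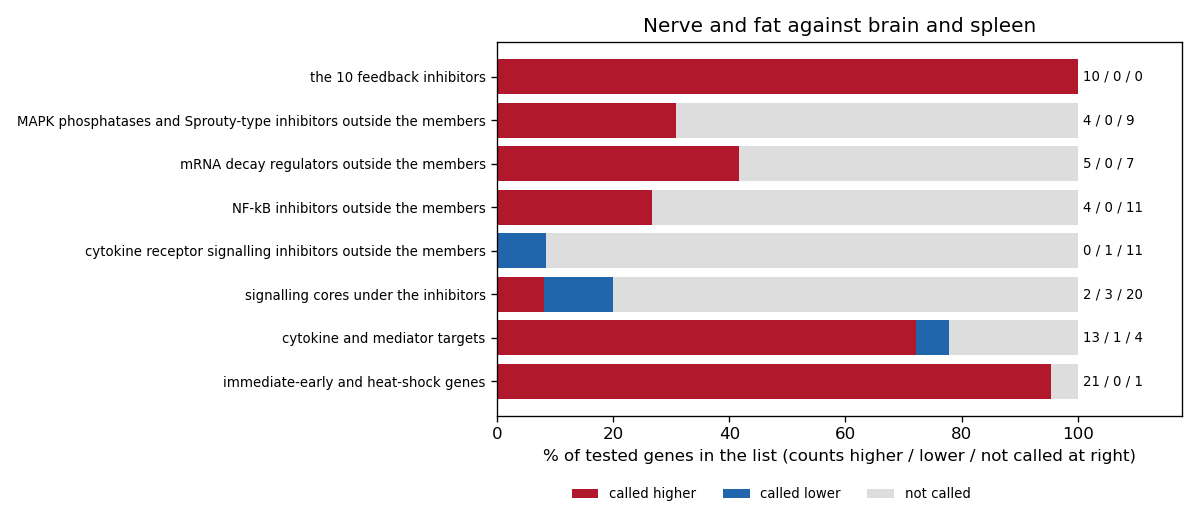
Share of the tested genes of each list that were called higher (red), lower (blue) or not called (grey) in nerve and fat against brain and spleen, with the counts at the right of each bar. The set (10 of 10), the immediate-early and heat-shock genes (21 of 22) and the cytokine and mediator targets (13 of 18) are mostly red, while the other inhibitors and the signalling cores are mostly grey.

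In SAM fibers against sATM, 13 of the 18 cytokine and mediator genes and 12 of the 22 immediate-early and heat-shock genes rose and none fell, with medians of 3.51 and 1.77, where 1.85% of all tested genes were called higher and 2.99% lower. Of the other inhibitors, 1 of 13 phosphatase and Sprouty-type genes, 0 of 12 decay genes and 2 of 15 NF-κB inhibitors rose, and 1 of 12 cytokine receptor inhibitors and 2 of 25 signalling core genes fell. Nfkbid was called both in SAM fibers against sATM (2.19 ± 0.43) and in SAM ganglia against SAM fibers (−1.75 ± 0.37). In SAM ganglia against SAM fibers, 12 of the 18 cytokine and mediator genes and 11 of the 22 immediate-early and heat-shock genes fell, where 1.27% of all tested genes were called lower and 2.85% higher. There 4 of 15 NF-κB inhibitors, 4 of 25 signalling core genes, 1 of 13 phosphatase and Sprouty-type genes and 1 of 12 decay genes also fell, while 1 phosphatase and Sprouty-type gene and 1 core gene rose. In SAM ganglia against fat, where 2.41% of all tested genes were called higher, 5 genes of the cytokine and mediator list, 5 of the immediate-early and heat-shock list and 1 core gene rose, and 1 phosphatase and Sprouty-type gene fell, while in sATM against vATM none of the 7 lists had a called gene.

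Across the 15 libraries the members followed one another. Pearson's r of log2(CPM + 1) over the 45 pairs of members ran from 0.63 (Dusp5 with Zfp36l1) to 0.98, with a median of 0.86, and was 0.98 for Dusp1 with Zfp36 and for Btg2 with Socs3. The libraries share tissue, depth and handling, so these values describe the pattern only. The search covered 4036 genes with at least 30 CPM in a group, among them members of the set. Predicted, clone-named, small RNA and mitochondrial genes were left out. The genes outside the set most like the mean of the members were Egr1 (r = 0.986), Ier2 (0.981), Klf6 (0.976), Fosb (0.976), Marcksl1 (0.973), Ptgs2 (0.969), Junb (0.968), Ier3 (0.956), Cxcl1 (0.956) and Ppp1r15a (0.956). Egr1 averaged 352 CPM in SAM ganglia, 3600 in SAM fibers, 123 in sATM, 185 in vATM, 4.45 in SpM and 5.15 in Microglia. Egr1, Ier2, Klf6, Fosb and Junb stand in the immediate-early and heat-shock list, and Ptgs2, Ier3 and Cxcl1 in the cytokine and mediator list. Ptgs2, Ier3 and Cxcl1 averaged 30 CPM or more only in SAM fibers, where the members peak too. They thus entered the search through that group alone. The lists were drawn up with earlier results of these data known, and their shares of the 4036 genes were not worked out.

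Single members had near neighbours of their own. Zfp36 was closest to Fosb (r = 0.996) and Atf3 (0.984), and Dusp1 to Fosb (0.986) and Klf2 (0.984). Dusp2 was closest to Map3k8 (0.963) and Nr4a1 (0.947), and Dusp5 to Sertad1 (0.946) and Srgn (0.939). Zfp36l1 was closest to Btg2 (0.952) and Zmynd15 (0.948), while Btg2 and Socs3 were closest to each other (0.978) and then to Ccl4 (0.971 and 0.972). Tnfaip3 was closest to Marcksl1 (0.976) and Cxcl1 (0.948), Nfkbia to Ppp1r15a (0.971) and Nfkbiz (0.969), and Nfkbiz to Ier2 (0.982) and Il1b (0.974). All values are over 15 libraries.

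Like the set, marker sums of several other cell types were highest in SAM fibers. For neuron, erythroid, neutrophil and glia markers Microglia lay above vATM, while for fibroblast markers Microglia lay below vATM. Every member had a lower mean CPM in Microglia than in vATM. In RPKM, Zfp36l1 had means of 44.3 in Microglia and 42.7 in vATM. Summed over 12 sympathetic neuron markers, SAM fibers had 301 to 780 CPM, SAM ganglia 114 to 161, sATM 25.2 to 66.5, vATM 5.51 to 12.1, SpM 4.35 to 6.62 and Microglia 24.2 to 32.9. All 12 were detected in SAM fibers and SAM ganglia, while Th, Uchl1 and Chrna3 were among those with under 3 counts in SpM. For 8 fibroblast markers the sums were 171 to 249 CPM in SAM fibers, 42.7 to 53.7 in SAM ganglia, 19.1 to 29.9 in sATM, 22.4 to 31.6 in vATM, 0.0972 to 1.89 in SpM and 5.93 to 10.3 in Microglia, with Pdgfra under 3 counts in SAM fibers. For 7 erythroid markers they were 1650 to 4620 CPM in SAM fibers, 640 to 896 in SAM ganglia, 139 to 371 in sATM, 25.1 to 54.8 in vATM, 207 to 652 in SpM and 94.3 to 142 in Microglia. For 9 neutrophil markers they were 141 CPM in both SAM fibers libraries, 19.3 to 99.4 in SAM ganglia, 28.4 to 80.2 in sATM, 6.62 to 10.5 in vATM, 34.2 to 47.3 in SpM and 102 to 123 in Microglia, and Ly6g had under 3 counts in SAM fibers, SAM ganglia, sATM and vATM. For 10 Schwann cell and satellite glia markers they were 667 to 703 CPM in SAM fibers, 201 to 356 in SAM ganglia, 76.1 to 119 in sATM, 176 to 202 in vATM, 3.50 to 11.3 in SpM and 342 to 394 in Microglia. Endothelial sums were at most 66.1 CPM, T cell sums 41.3 CPM and B cell sums 128 CPM in any library, the first and the last of these in SpM. The part of these transcripts in the levels of the set was not tested.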

How the data were processed

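The 3 deposited tables of the series were used. The main one holds expected counts, which the authors deposited after taking out DNA contamination, per its name; how this was done is not given in the sources used here. The second holds raw gene-body counts as the authors deposited them (24525 genes), and the third RPKM values as the authors deposited them (24414 genes). The submitters' processing notes name STAR, HOMER and build mm10. Of the expected counts, 45.3% were whole to within 1e-09, and all 25 symbols turned into dates were resolved by transcript identifier.

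Expected counts were rounded and fitted with edgeR 4.0.16 (R 4.3.3): filterByExpr with a minimum count of 10, TMM factors of 0.668 to 1.40, a mean per group over all 15 libraries, common biological coefficient of variation 0.680, quasi-likelihood F-tests for 7 comparisons and Benjamini-Hochberg adjustment. Groups of a side were weighted equally on the log2 scale, and SE is the fold change over the root of F. The scripts were tested on simulated data. Alternatives were RLE scaling, no filter, DESeq2 1.42.0, limma 3.58.1 (voom with quality weights, or log2 RPKM with a pseudocount of 0.1 or 1), raw counts, a fit without ribosomal RNA genes, only the groups compared, a replicate block and each library left out. Leaving out both SAM fibers libraries, and comparing only groups digested alike, were added after seeing the data. Promoters came from RefSeq and 3′ UTRs from GENCODE M21.

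The members, the gene lists and the comparison of nerve and fat with brain and spleen were chosen with earlier results of these data known. Named genes outside the set are up to 4 called genes per list with the smallest p in nerve and fat against brain and spleen, the 10 genes most like the members' mean and the 2 most like each member; uncalled list members, Zc3h12a, Tnf, Il1a and Rel were named after their values were seen.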

Additional observations from a re-analysis of the deposited data

How the results depend on the processing

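Over all alternatives, 1569 of 1759 fitted member values kept their direction and side of the threshold, 127 lost a call, 20 gained 1 and 43 changed sign. Nerve and fat against brain and spleen kept 8 to 10 calls under every setting, and its leave-one-out count was 10 throughout. SAM against the other macrophages kept 9 or 10 except in raw gene-body counts (1 called). In raw counts no member was called in SAM fibers against sATM (0), SAM ganglia against SAM fibers (0), SAM ganglia against fat (0) or SpM against Microglia (0 higher, 0 lower). There, against sATM, SAM fibers values were −0.82 for Dusp1, −0.35 for Dusp2, −1.17 for Dusp5, −0.57 for Zfp36 and −0.17 for Zfp36l1. SAM ganglia against SAM fibers gave 0.87 for Dusp1, 0.97 for Zfp36, 1.4 for Zfp36l1, 0.59 for Btg2, 0.69 for Tnfaip3 and 0.29 for Nfkbia. SAM ganglia against fat gave −0.14 for Dusp2 and −0.06 for Nfkbiz, and the cause was not tested.

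With only the groups compared in the fit, which leaves fewer samples, 0 members were called in SAM fibers against sATM and 1 in SAM ganglia against SAM fibers. Of all genes, 0 were called in SAM fibers against sATM, and 8 higher and 24 lower in SAM ganglia against SAM fibers. DESeq2 called 1 member lower, Dusp5, in SAM ganglia against fat. In SpM against Microglia, log2(RPKM + 1) called 1 higher and 1 lower, and no filter (1), voom with quality weights (1) and the fit without ribosomal RNA genes (1) called 1 lower.

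Values near 0 changed sign. In sATM against vATM, Zfp36 (−0.03) became 0.04 with RLE scaling, DESeq2 or only the groups compared, 0.01 with no filter or without ribosomal RNA genes, and 0.29 in log2 RPKM with either pseudocount, and Nfkbiz (0.04) became −0.21 with voom and −0.10 in raw counts. In SpM against Microglia, Dusp1 (−0.14) became 0.04 with voom, 0.40 and 0.13 in log2(RPKM + 0.1) and log2(RPKM + 1) and 0.33 in raw counts, and Zfp36 (0.03) became −0.11 and −0.10 in log2 RPKM.

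With libraries left out in turn, calls ranged from 9 to 10 in SAM against the other macrophages, 2 to 9 in SAM fibers against sATM, 6 to 9 in SAM ganglia against SAM fibers, 0 to 3 in SAM ganglia against fat, and 1 to 2 in each direction in SpM against Microglia. In these fits, values that changed sign ranged from −0.02 to 2.44 for Dusp5 in SAM fibers against sATM. In SAM ganglia against fat they ranged from −0.20 to 0.67 for Dusp2, −0.04 to 0.37 for Nfkbia and −0.04 to 0.45 for Nfkbiz. In sATM against vATM they ranged from −0.02 to 2.27 for Dusp5, −0.05 to 0.09 for Zfp36 and −0.47 to 0.45 for Nfkbiz, and in SpM against Microglia from −0.52 to 0.42 for Dusp1 and −0.20 to 0.21 for Zfp36.

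The labels give the replicate numbers no shared animal or batch, so they were not taken as pairs: over 33 pairs with the same number, deviations from the group mean correlated at −0.40 to 0.62, 17 were over 0.1 and 16 were not, and 8 of the 15 libraries correlated best, among those of other groups, with one of their own number. With the replicate block 42 member calls were made, against 43 without, and 3 differed (Dusp2 in SAM fibers against sATM, 2.61, gained, and Dusp5 in SAM ganglia against SAM fibers, −3.78, and Socs3 in SAM ganglia against fat, 1.14, lost). Members called under the block were 10 in each of the first 2 comparisons, 9, 7, 2 and 0 in the next 4 and 2 in each direction in SpM against Microglia.

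RLE scaling moved the median of all tested genes by 0.28 in SAM fibers against sATM (called genes higher 57.1%, against 38.2% with TMM, with 9 members called) and to −0.25 in SAM ganglia against SAM fibers (50.3% against 69.2%, with 10 members called). In log2(RPKM + 0.1) 32.0% of called genes were higher in nerve and fat, against 51.8%, and all 10 members were called.

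Depth limits Dusp5, whose levels in SpM and Microglia lie near or under 3 counts, and Dusp2 in Microglia. In SAM fibers 1 the corrected counts were a median of 3.26% of the raw gene-body counts, so levels there rest most on what sets these counts apart.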
